A study of Mus musculus with 13 samples.

Results

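mRNA levels in mouse embryos cloned by somatic cell nuclear transfer (SCNT) were compared with those in fertilized embryos, in the arms of the study that received no aphidicolin (Aph-), so that DNA replication could proceed. The members are 6 of the 13 arrays of the series, chosen by their labels alone: the 3 SCNT Aph- arrays and the 3 fertilized Aph- arrays. All genes with a probe were considered, and 6847 of 16593 were detected often enough to be tested. The study used aphidicolin, an inhibitor of replicative DNA polymerases, in other embryos to ask whether the oocyte can reprogram a nucleus without DNA synthesis, and the 2 groups compared here are its replicating controls.

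Each group holds 1 array labelled with no time, 1 labelled 96 h and 1 labelled blastocyst, called here the untimed, the 96 h and the blastocyst array, and the labels give the cell type of all 6 as blastocysts. The series text counts each array as 1 biological replicate of its own sample type, whereas the study's text speaks of triplicates collected at 96 hours after activation (96 hpa), and whether the 3 label types are those triplicates is not settled by the sources used here. The p-values measure the spread between these samples, which may in part be technical. The labels and the array section of the methods name in vitro fertilization for the fertilized embryos, whereas the methods for making embryos describe injection of C57Bl/6J sperm into C3H/HeN oocytes (ICSI), and which was used for these arrays is not settled by the sources used here. By the methods, the cloned embryos were made by moving C57Bl/6J cumulus cell nuclei into oocytes of the same C3H/HeN kind from which the chromosomes had been removed. The labels of the oocyte and cumulus arrays name B6C3F1 instead, so the strains behind these embryo arrays are not settled either. Embryos were pooled for each array and, per the study's text, taken whatever stage they had reached, so that arrested embryos were included with developing ones. The stages within a pool are not given, so a different level per embryo and a different mix of stages cannot be told apart in any comparison that follows. In addition, the labels give no age of the donors, and nothing in the labels ties an array to a particular day of micromanipulation. Unfertilized MII oocytes (1 array) and cumulus cells (2 arrays), which the labels describe as B6C3F1, served as levels to set beside the embryos and entered no test.

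In SCNT the oocyte receives a differentiated nucleus whose chromatin must be returned to an embryonic state, and embryos that fail in this commonly arrest or form abnormal lineages. A mouse blastocyst holds an outer trophectoderm, which builds the placenta, and an inner cell mass, which divides into the pluripotent epiblast and the primitive endoderm that lines the yolk sac. Female embryos silence an X chromosome through the non-coding RNA Xist, and in the early mouse embryo this concerns first the X chromosome inherited from the father. A cumulus nucleus is female and brings an X chromosome that is already silenced, whereas fertilized pools hold embryos of both sexes.

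Values are log2 intensities after background correction and quantile normalization, and differences are SCNT minus fertilized on that scale. A gene was called higher or lower where limma gave an adjusted p under 0.05 (Benjamini-Hochberg over the 6847 genes). Under this rule 258 genes were higher in SCNT Aph- embryos (3.77% of those tested) and 323 were lower (4.72%), 581 in all (8.49%). A difference of at least 2-fold was reached by 175 of the higher genes (2.56%) and by 217 of the lower genes (3.17%). The median difference over all genes tested was -0.02, which the quantile normalization holds near 0. Probes were detected in smaller number on the SCNT arrays (7673 to 8691) than on the fertilized arrays (9157 to 9487), and mean intensity was 184 to 313 against 316 to 374. That difference in brightness moves with the comparison, and its part in the counts of lower genes was not tested. Of the 323 lower genes, 81 were not detected on any SCNT array, against 212 of the 6847 genes tested. Of the 258 higher genes, 9 were not detected on any fertilized array, against 17 of the genes tested. Such genes entered the test only through the group that detected them, so the filter largely set their direction. The arrays of the 2 groups did not overlap for all 258 higher and all 323 lower genes, and for 2150 of the 6847 genes tested. Absence of overlap, where given below, therefore adds nothing to a call.

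**Figure D1:**
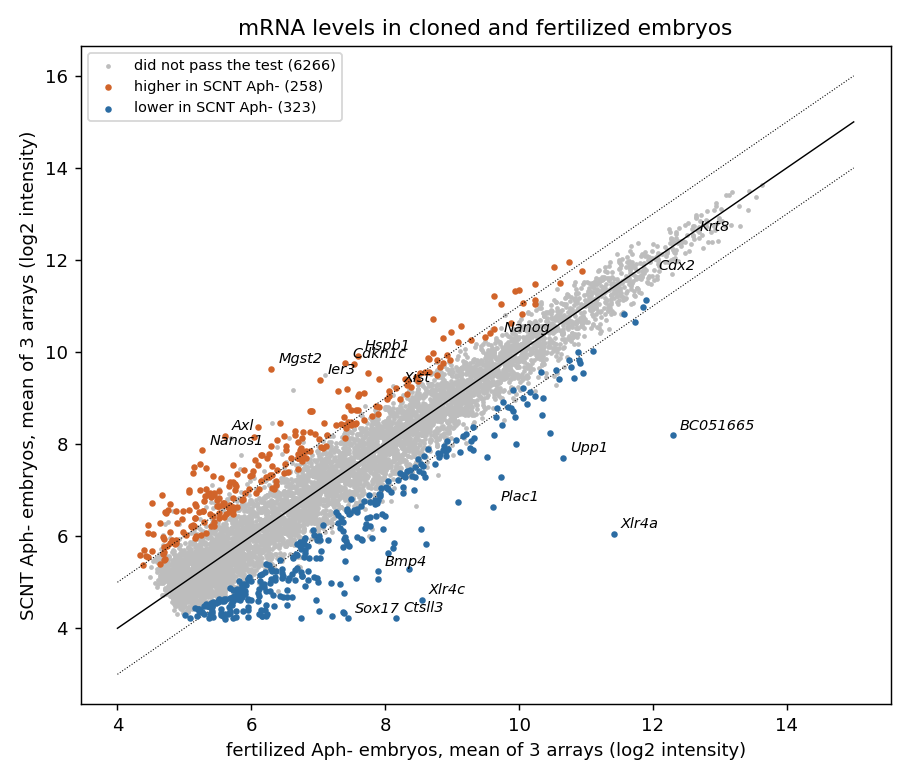
Mean log2 intensity of each of the 6847 genes in fertilized Aph- embryos (horizontal axis) and SCNT Aph- embryos (vertical axis), 3 arrays each, with equality as a solid line and 2-fold differences as dotted lines. The 258 higher genes lie above the solid line and the 323 lower genes below it, with Xlr4a farthest below, and the lineage genes Nanog, Cdx2 and Krt8 lie close to it.

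The arrays of a group resembled each other more than those of the other group, except that the untimed SCNT array was as close to the fertilized arrays as to the other clones. Correlations over the tested genes, which are not independent replicates, were 0.971 to 0.981 among fertilized arrays, 0.960 to 0.964 among SCNT arrays and 0.905 to 0.965 between groups, the highest of these with the untimed SCNT array. Within the untimed arrays 207 genes were at least 2-fold higher and 194 at least 2-fold lower in the clone, against 659 and 816 within the 96 h arrays and 357 and 486 within the blastocyst arrays. The difference was at least 2-fold in all 3 pairs for 59 higher genes and 85 lower genes. The counts rested on which arrays entered: without the untimed SCNT array 443 genes were higher and 553 lower, and without any of the other 5 arrays 71 to 112 were higher and 99 to 157 lower. A core of 51 higher and 85 lower genes was called in all 6 fits that left out 1 array, and below a call is described as steady where it belongs to this core. None of the called genes chosen by the naming rule changed direction in any fit. Of these named genes 37 had steady calls, and 25 of the 37 also passed when the spread was taken from all 13 arrays. The steady genes that did not were Plac1, Pja1, Fam110b, Lama1, Serpinh1, Axl, Ier3, Rasl11b, Slc4a8, Hspb1, Gpx3 and Rps15a.

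Xist and genes of the Y chromosome were read first, since they bear on the labels. Usp9y, a Y-linked deubiquitinase, had 6.77, 5.32 and 5.78 in the untimed, 96 h and blastocyst fertilized arrays and 4.23, 4.28 and 4.21 in the SCNT arrays, where it was detected on no array. Its level was at least 1.84-fold lower in clones (adjusted p = 0.0138), and this call was steady. Eif2s3y, a Y-linked translation factor subunit, was likewise detected on every fertilized array and on no SCNT array, too near the detection limit for a fold (adjusted p = 0.0257), but lost its call without any array other than the untimed SCNT array (adjusted p 0.062 to 0.0998). Signal of both genes was thus read on every fertilized array and on no clone. Uty went the other way: it was near background everywhere (4.62 to 5.49), detected on 2 fertilized arrays and on 1 clone. That clone, the 96 h array, held its highest value, and the difference was 0.09 (adjusted p = 0.851). Kdm5d, Sry, Uba1y, Zfy1 and Zfy2 were not detected often enough to be tested.

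Xist had 8.01, 8.62 and 7.85 in the fertilized arrays and 8.90, 9.26 and 9.50 in the SCNT arrays. The groups did not overlap, and the level was 2.09-fold higher in clones (log2 difference 1.06, SE 0.26, adjusted p = 0.0345). This call was lost without the untimed or the blastocyst fertilized array (adjusted p = 0.102 and 0.132) and without the 96 h or the blastocyst SCNT array (adjusted p = 0.0858 and 0.105). The share of female embryos in the fertilized pools is not given, so a higher level per embryo and more embryos that carry Xist cannot be told apart. In bulk samples like these, fewer cells of a kind and less RNA per cell likewise cannot be told apart, which holds for every result that follows.

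The largest fall was that of an X-linked gene, and 7 of the 15 largest falls were X-linked. Xlr4a, of the X-linked lymphocyte-regulated family of near-identical gene copies, had 11.41, 11.47 and 11.36 in fertilized embryos and 6.19, 5.62 and 6.35 in clones. It was detected in every clone but lay far below every fertilized array, 41.2-fold lower (log2 difference -5.36, SE 0.23, adjusted p = 2.26e-06). Its relative Xlr4c had 8.31, 8.76 and 8.58 against 4.31, 4.24 and 5.31, and was detected on 1 clone, so that its 15.2-fold lower level is set partly against background (log2 difference -3.93, SE 0.29, adjusted p = 1.94e-04). Both were bright in the MII oocyte (11.34 and 9.27) and dimmer in cumulus cells (7.24 and 7.41 for Xlr4a, 4.34 and 4.50 for Xlr4c). Signals of near-identical copies cannot be separated here, since the probe sequences were not used, and the Xlr4a and Xlr4c values may share signal.

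Genes of the Mage family, which encode tumour antigens normally made in germ cells and partners of ubiquitin ligases, fell with them. Magea2 had 7.55, 7.81 and 6.80 in fertilized embryos and 4.27 to 4.37 in clones, where it was not detected, at least 4.95-fold lower (adjusted p = 3.12e-04). Magea5 had 7.63, 7.27 and 6.72 against 4.21 to 4.31, also not detected in clones, at least 4.37-fold lower (adjusted p = 2.94e-04). Both calls were steady, as were those of Xlr4a and Xlr4c, and all 4 also passed when the spread was taken from all 13 arrays. Of the list of X-linked multicopy genes, 8 of 23 on the chip were tested, 6 were lower and 1 was higher, with a median of -2.42, or -1.60 with undetected genes set to their bound. Of the 8 tested, 4 were undetected on every clone and so entered the test only through the fertilized arrays. Over the alternatives described below the median ran from -4.15 to -0.09. The other lower genes of the list were Gm773 (at least 2.11-fold, adjusted p = 0.00506) and Xlr5a (at least 1.51-fold, adjusted p = 0.0138). The exception was Rhox5, a homeobox gene of the reproductive cluster on the X chromosome, which had 10.23, 10.55 and 10.78 in fertilized embryos and 11.96, 11.67 and 11.94 in clones. It was 2.53-fold higher in clones (log2 difference 1.34, SE 0.22, adjusted p = 0.00691) with no overlap, a steady call.

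The promoters of 5 of these genes are shown because Xlr4a and Xlr4c, and Magea2 and Magea5, fell together while the X-linked Rhox5 rose, and because CG dinucleotides are where DNA methylation is placed in mouse. Each sequence holds 250 bases before and 50 after the gene start from RefSeq on GRCm38.p6, read 5′ to 3′ on the strand of the gene, with every CG in capitals. They lie at chrX:73082458-73082757 (Xlr4a), chrX:73243081-73243380 (Xlr4c), chrX:155033243-155033542 (Magea2) and chrX:155061504-155061803 (Magea5), all on the minus strand, and at chrX:37754358-37754657 (Rhox5) on the plus strand.
Xlr4a: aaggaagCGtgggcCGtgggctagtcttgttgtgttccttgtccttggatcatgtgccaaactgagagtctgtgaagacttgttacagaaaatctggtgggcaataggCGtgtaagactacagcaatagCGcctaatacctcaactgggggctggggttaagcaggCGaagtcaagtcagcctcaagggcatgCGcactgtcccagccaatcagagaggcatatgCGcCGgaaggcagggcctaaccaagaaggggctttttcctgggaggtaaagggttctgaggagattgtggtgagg
Xlr4c: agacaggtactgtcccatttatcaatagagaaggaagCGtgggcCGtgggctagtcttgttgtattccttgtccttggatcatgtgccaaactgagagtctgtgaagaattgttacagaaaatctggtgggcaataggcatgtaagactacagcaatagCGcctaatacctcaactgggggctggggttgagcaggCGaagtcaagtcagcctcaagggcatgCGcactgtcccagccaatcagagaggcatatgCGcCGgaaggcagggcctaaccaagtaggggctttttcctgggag
Magea2: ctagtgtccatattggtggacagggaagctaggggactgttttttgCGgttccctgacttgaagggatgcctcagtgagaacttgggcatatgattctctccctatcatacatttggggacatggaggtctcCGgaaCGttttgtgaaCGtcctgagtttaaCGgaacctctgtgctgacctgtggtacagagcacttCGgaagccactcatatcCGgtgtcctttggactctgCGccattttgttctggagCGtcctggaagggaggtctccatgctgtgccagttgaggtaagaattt
Magea5: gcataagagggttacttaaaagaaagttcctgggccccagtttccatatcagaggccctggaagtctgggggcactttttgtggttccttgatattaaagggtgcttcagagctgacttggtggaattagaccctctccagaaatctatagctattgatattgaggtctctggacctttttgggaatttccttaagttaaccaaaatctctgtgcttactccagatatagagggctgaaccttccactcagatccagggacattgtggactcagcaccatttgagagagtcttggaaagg
Rhox5: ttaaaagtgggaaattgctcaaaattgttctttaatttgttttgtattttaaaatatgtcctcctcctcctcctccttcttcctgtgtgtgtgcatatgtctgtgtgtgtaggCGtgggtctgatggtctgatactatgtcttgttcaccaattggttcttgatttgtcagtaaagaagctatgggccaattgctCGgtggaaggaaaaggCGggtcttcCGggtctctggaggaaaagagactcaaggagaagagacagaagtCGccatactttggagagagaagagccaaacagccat
Xlr4a held 8 CG, Xlr4c 7, Magea2 9 and Rhox5 5, near the median of 7 over 32851 promoters of this length, of which 94.6% held at least 1. Magea5 held 0, as did 5.43% of all promoters. The Xlr4a and Xlr4c windows, slid along each other without gaps, were identical at 265 of 270 positions (98.1%). The same match gave 96 of 265 (36.2%) for Magea2 and Magea5. An insertion or deletion would lower such a gap-free value, so it does not show how closely these 2 promoters are related. CG is read the same on both strands.

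**Figure D2:**
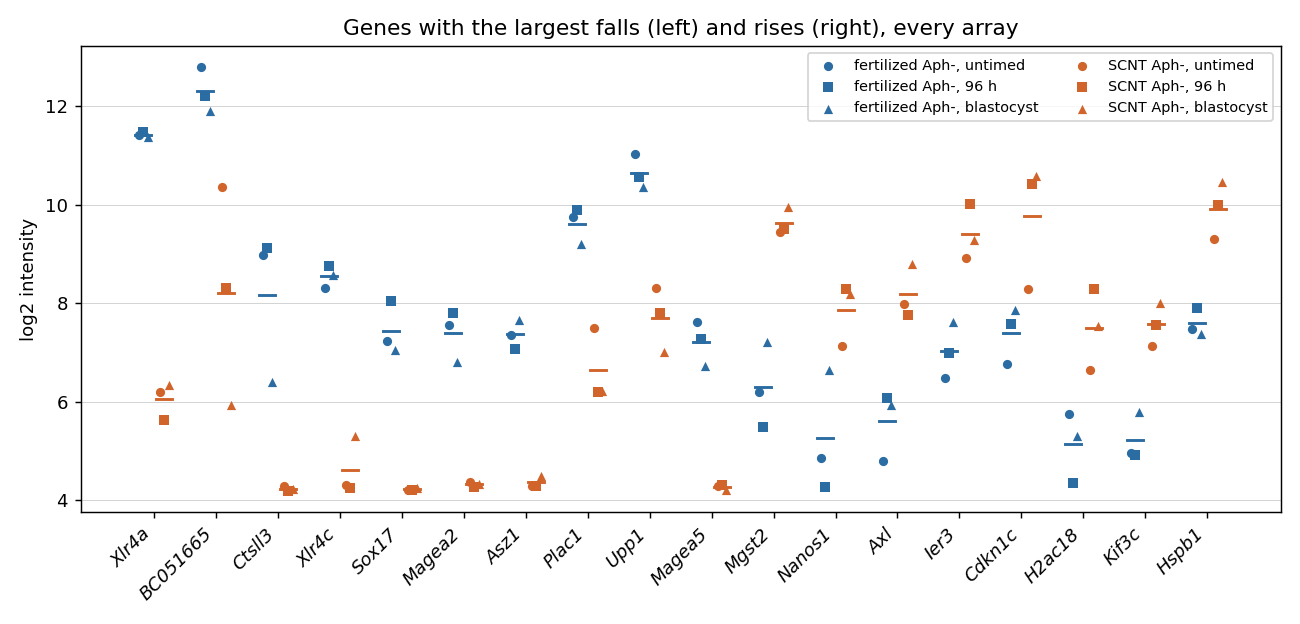
Log2 intensity of the 10 genes with the largest falls and the 8 with the largest rises on each of the 6 arrays, fertilized Aph- in blue and SCNT Aph- in orange, with markers for the untimed, 96 h and blastocyst arrays and a line at each mean. The genes shown were chosen among called genes without overlap between the groups, and BC051665 is the most spread among the SCNT arrays.

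Single-copy X-linked genes were lower as well. Plac1, a gene of the trophoblast needed for placental growth, had 9.74, 9.89 and 9.20 in fertilized embryos and 7.50, 6.19 and 6.22 in clones (7.86-fold lower, log2 difference -2.97, SE 0.35, adjusted p = 0.00157). Pja1, a ubiquitin ligase, had 8.15, 8.08 and 7.45 against 4.97, 5.55 and 4.68 (7.08-fold lower, adjusted p = 7.44e-04), and Gm14685 had 8.46, 8.72 and 7.90 against 4.37, 5.55 and 5.98 (8.36-fold lower, adjusted p = 0.00203). In each the highest clone lay below the lowest fertilized array, the 3 calls were steady, and Pja1 and Gm14685 were each detected on 2 clones. Next in size on the X chromosome, and named after their values were seen, came Efnb1, a membrane ligand of Eph receptors (log2 difference -2.35, adjusted p = 9.41e-04, detected on 1 clone), Fmr1nb (-2.34, adjusted p = 7.44e-04) and Hsd17b10, a mitochondrial dehydrogenase (-1.94, adjusted p = 0.00222). Housekeeping genes further down the order, such as Smc1a of the cohesin ring (-1.20, adjusted p = 0.0168) and Aifm1 of the mitochondrial intermembrane space (-1.03, adjusted p = 0.0147), lost their calls in some of the fits without 1 array (adjusted p up to 0.0631 and 0.0656).

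Over the whole X chromosome 203 genes were tested, 36 were lower (17.7%) and 13 were higher (6.40%). Of the 203, 15 were undetected on every clone, against 195 of 6639 autosomal genes, and so entered the test only through the fertilized arrays. Among the 19 autosomes the share of lower genes ran from 3.0% to 8.44%, and of higher genes from 1.95% to 5.74%, so the X chromosome lay outside both ranges. The median X-linked difference was -0.20, against autosomal medians between -0.08 and 0.04. Without the multicopy list and Xist, 30 of 194 X-linked genes were lower (15.5%), 11 were higher and the median was -0.18. The median was negative within the untimed arrays (-0.12), the 96 h arrays (-0.45) and the blastocyst arrays (-0.18). Leaving out 1 array gave 21 to 42 lower and 3 to 14 higher X-linked genes, 20 lower ones in all of those fits. With the spread taken from all 13 arrays, 14 X-linked genes were lower and 2 higher. Over the alternatives described below the X-linked median ran from -0.30 to -0.01. Clones carry a female nucleus and the fertilized pools hold both sexes, in a share not given. Sex composition therefore cannot be told apart from the kind of embryo.

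**Figure D3:**
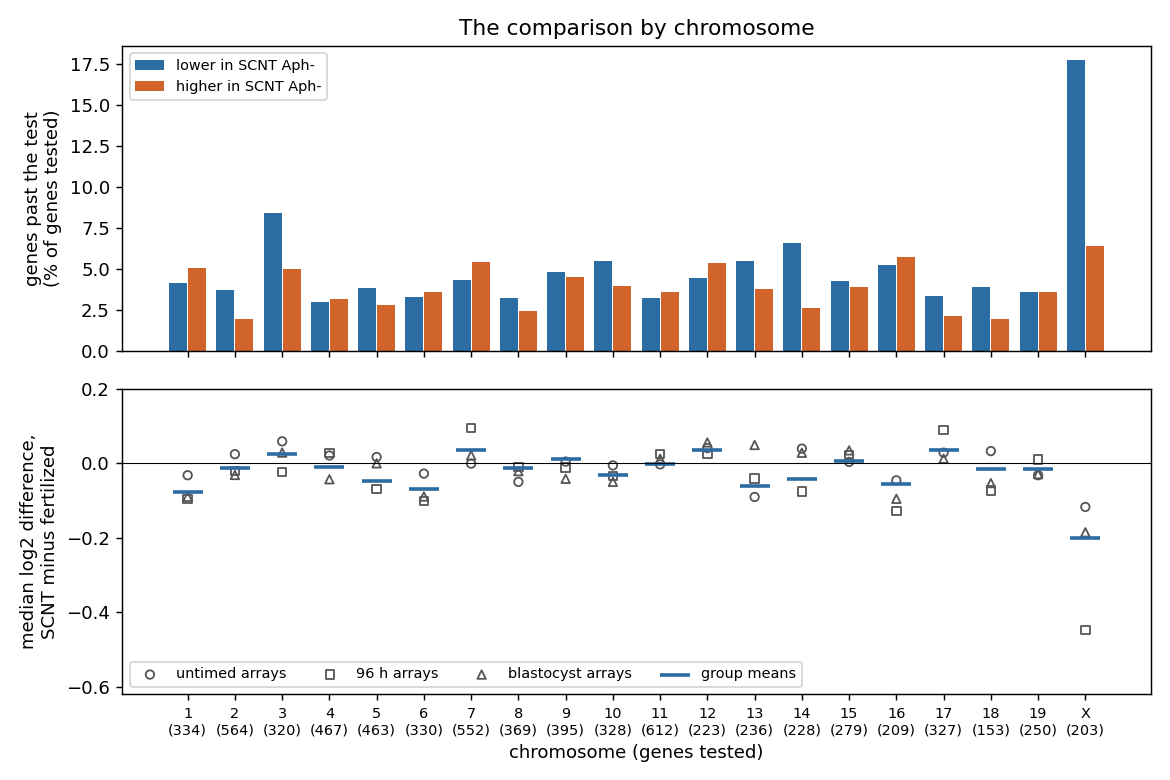
Upper panel, the share of tested genes on each chromosome that were lower (blue) or higher (orange) in SCNT Aph- embryos; lower panel, the median log2 difference for group means (bars) and within each pair of arrays (open markers). On the X chromosome 17.7% of 203 genes were lower and the median was -0.20, outside the range of the autosomes.

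The X-linked genes that rose included Tsc22d3, a glucocorticoid-induced leucine zipper protein, with 4.39 to 4.69 in fertilized embryos, where it was not detected, and 6.82, 6.04 and 7.32 in clones. It was at least 3.85-fold higher (adjusted p = 0.00305), a steady call, and cumulus cells held more of it (9.03 and 8.08). Gpc4, a glypican of the cell surface, followed with 4.52 to 4.98 against 5.87 to 7.18 (log2 difference 1.82, SE 0.31, adjusted p = 0.00893), detected on 1 fertilized array, again with bright cumulus cells (9.12 and 9.01). Kdm6a, which encodes a histone H3K27 demethylase and escapes X inactivation, was only just past the threshold (0.74, adjusted p = 0.0499) and lost its call in every fit without 1 array (adjusted p 0.0637 to 0.143).

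Outside the X chromosome the falls were led by cathepsin-like genes, a germ cell gene and lineage regulators. Ctsll3, a cathepsin L-like protease gene on chromosome 13, had 8.98, 9.13 and 6.40 in fertilized embryos and 4.18 to 4.29 in clones, where it was not detected (at least 8.51-fold lower, adjusted p = 0.0042). BC051665, also on chromosome 13, had 12.79, 12.20 and 11.90 against 10.36, 8.30 and 5.93, a level that varied more among clones than that of any other gene shown (log2 difference -4.10, SE 0.84, adjusted p = 0.0191). Its call was lost without the untimed or the 96 h fertilized array (adjusted p = 0.0668 and 0.0707). Asz1, of the germ cell machinery that makes piRNAs, had 7.35, 7.08 and 7.67 against 4.29 to 4.50 and was not detected in clones (at least 4.88-fold lower, adjusted p = 1.94e-04). Diras2, a small GTPase, had 6.75, 6.90 and 7.39 against 4.18 to 4.55, also undetected in clones (at least 3.82-fold lower, adjusted p = 3.24e-04). Asz1 and Diras2 were bright in the oocyte (8.30 and 8.15) and near background in cumulus cells, whereas Ctsll3 and BC051665 were at background in both. Fam110b also belonged to the 15 largest falls (log2 difference -2.77, adjusted p = 0.00224). Of those 15 genes, 7 were X-linked, against 203 of the 6847 genes tested. On every clone 6 were undetected, against 212 of all, and these entered the test only through the fertilized arrays. At least 2-fold brighter in the oocyte than in cumulus cells were 7, and 1 had the opposite order. Over all genes tested those shares were 23.9% and 35.5%.

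Several genes of the primitive endoderm were lower in clones. Of 13 tested, 6 were lower (46.2%, against 4.72% of all genes) and 0 higher, with a median of -0.98 against -0.02 for all genes, and at an unadjusted p under 0.05 limma gave 9 lower and 0 higher. Of the 13 tested, 3 were undetected on every clone and so entered the test only through the fertilized arrays. Over the alternatives described below the median ran from -1.25 to -0.09. Sox17, a transcription factor of endoderm, had 7.23, 8.04 and 7.05 in fertilized embryos and 4.21, 4.21 and 4.25 in clones. It was detected on every fertilized array and on no clone, at least 5.14-fold lower (adjusted p = 2.74e-04). Pdgfra, the receptor that marks primitive endoderm, had 8.29, 8.29 and 7.76 against 5.36, 6.61 and 5.28 (5.14-fold lower, adjusted p = 0.00412). Lama1, a laminin chain of the basement membrane the tissue lays down, had 9.20, 8.79 and 7.63 against 6.16, 6.14 and 6.18 (5.20-fold lower, adjusted p = 0.00412). The laminin chains Lamb1 (-1.83, adjusted p = 0.0104, detected on 2 clones) and Lamc1 (at least 1.26-fold lower, adjusted p = 0.0258) and the collagen chaperone Serpinh1 (at least 1.62-fold lower, adjusted p = 0.00928) were lower too, the last 2 undetected in clones. Gata6, which specifies this lineage, did not pass the test: it had 9.88, 10.15 and 10.15 against 9.89, 10.19 and 10.39 (0.10, SE 0.21, adjusted p = 0.798). Gata4 was not detected on any of the 6 arrays. The calls of Sox17, Pdgfra, Lama1, Lamb1 and Serpinh1 were steady, that of Lamc1 was not (adjusted p up to 0.0998), and 5 to 8 genes of the list were lower in the fits without 1 array. With the spread of all 13 arrays 3 were lower, and Lama1 and Serpinh1 did not pass (adjusted p = 0.108 and 0.0554). Lama1, Lamb1 and Serpinh1 were also made by cumulus cells (Lama1 at 10.45 and 10.61).

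Among 25 tested genes of pluripotency and the inner cell mass, 3 were lower (12%, against 4.72% of all genes) and 0 higher, with a median of -0.31, and at an unadjusted p under 0.05 limma gave 6 lower and 2 higher. Upp1, which encodes uridine phosphorylase, had 11.02, 10.57 and 10.37 in fertilized embryos and 8.30, 7.80 and 7.0 in clones (7.74-fold lower, adjusted p = 0.00123). Bmp4, a signal from epiblast to its neighbours, had 8.27, 8.01 and 7.39 against 5.36, 5.70 and 4.65 (6.29-fold lower, adjusted p = 0.00156). Both calls were steady, and Bmp4 was detected on 2 clones. Tdgf1, the Nodal co-receptor Cripto, also detected on 2 clones, was lower (log2 difference -1.83, SE 0.44, adjusted p = 0.033), but this was lost without any of the 3 fertilized arrays (adjusted p 0.0766 to 0.101).

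None of the core factors tested passed the threshold, and they did not share a direction. Nanog, a factor of the epiblast, had 9.53, 9.72 and 9.73 in fertilized embryos and 10.25, 10.38 and 10.30 in clones. The groups did not overlap, yet the difference of 0.65 (SE 0.19) missed the threshold (adjusted p = 0.0601). Pou5f1 (Oct4) had 6.14, 6.97 and 6.68 against 6.10, 5.92 and 6.36 on the probe used (-0.47, SE 0.25, adjusted p = 0.256), while a second, dimmer probe gave 0.28, so no direction is given for it. Klf4 (-0.97, adjusted p = 0.0503) and Zfp42 (-0.78, adjusted p = 0.0821) were lower in mean without passing the test. Sox2 was detected on 2 fertilized arrays and on no SCNT array by 1 of its 2 probes, too few to be tested.

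The trophectoderm list checks the label of blastocysts: 29 to 30 of 35 genes were detected on fertilized arrays and 26 to 29 on SCNT arrays, against 10 on the oocyte array. Its defining members did not pass the test. Cdx2, which specifies the lineage, had 11.75, 11.92 and 12.28 against 12.03, 11.53 and 11.42 (-0.32, SE 0.24, adjusted p = 0.407). The keratins Krt8 (12.54 to 12.62 against 12.44 to 12.64) and Krt18 (lowest arrays 11.72 and 11.59) each had a difference of -0.08 (SE 0.19 and 0.20), and Gata3 (-0.11) and Tead4 (-0.12) were as close. Of the 28 tested, 4 were lower (14.3%, against 4.72% of all genes) and 2 higher (7.14%, against 3.77%), with a median of -0.18. At an unadjusted p under 0.05 limma gave 9 lower and 4 higher. The fits without 1 array gave 1 to 8 lower genes of the list, and the spread of all 13 arrays gave 0 lower and 2 higher.

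Beside Plac1, the lower members were transcription factors of the trophoblast stem cell. Elf5 had 7.37, 6.55 and 6.33 in fertilized embryos and 5.90, 4.91 and 4.57 in clones, of which 1 was above background (log2 difference -1.62, SE 0.37, adjusted p = 0.027), Tfap2a fell by 1.35 (adjusted p = 0.0456) and Ets2 by 1.06 (adjusted p = 0.0444). Elf5 and Tfap2a lost their calls in 4 and 5 of the 6 fits without 1 array (adjusted p up to 0.0835 and 0.162), and the call of Ets2 was not steady either (up to 0.153). Eomes, which belongs to the same network, was lower in mean (-0.97, SE 0.32) without passing the test (adjusted p = 0.089). The higher members were Lgals3, the lectin galectin-3, with 10.05, 9.50 and 9.31 against 11.17, 11.18 and 11.31 (3.03-fold higher, adjusted p = 0.00412, steady), and Ptges, a prostaglandin E synthase (1.21, adjusted p = 0.0106). Ptges lost its call without the 96 h fertilized array (adjusted p = 0.0518), and another probe of the gene gave -0.17. Lgals3 was bright in cumulus cells as well (11.85 and 11.86).

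Of 23 tested genes for junctions, the sodium pump and water channels, the parts with which trophectoderm pumps fluid, 1 was lower and 0 higher, and limma gave 2 lower and 2 higher at an unadjusted p under 0.05. The exception was Aqp8, a water channel, with 7.35, 7.43 and 7.36 in fertilized embryos and 4.98, 4.87 and 4.43 in clones (6.14-fold lower, log2 difference -2.62, SE 0.21, adjusted p = 2.74e-04). It was detected on 1 clone, so that fold is set partly against background. The fertilized arrays lay within 0.1 of each other and all clones far below, and the call was steady. The median of the list was 0.00.

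**Figure D4:**
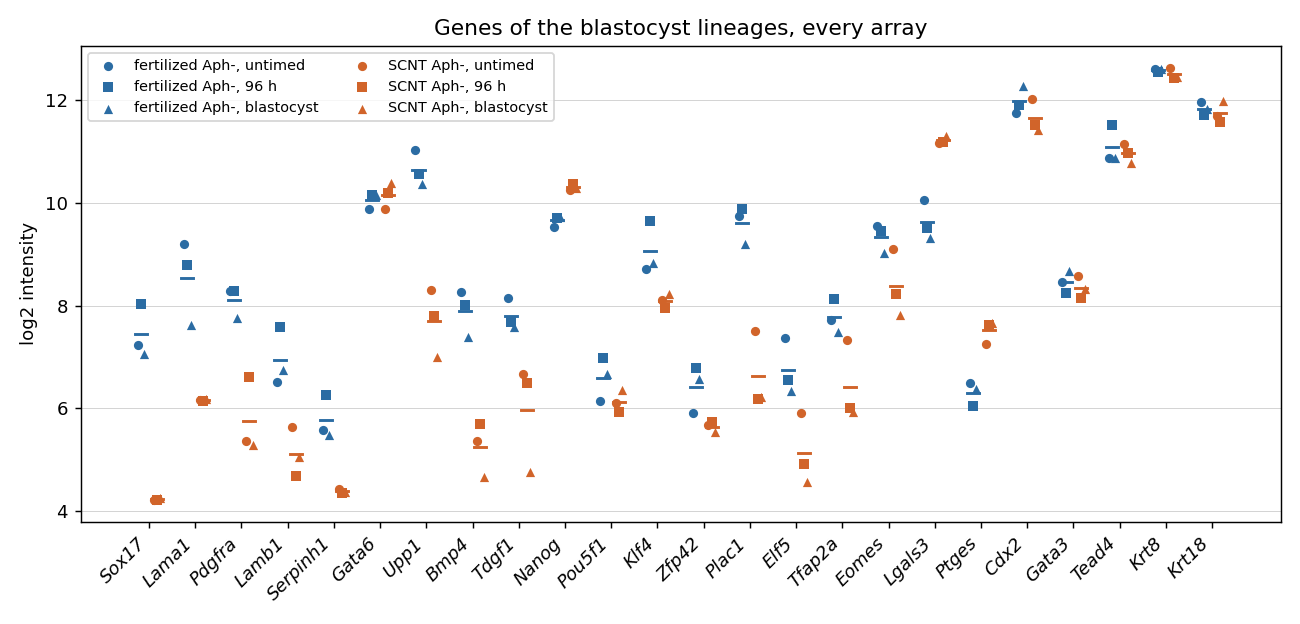
Log2 intensity of lineage genes on each of the 6 arrays, fertilized Aph- in blue and SCNT Aph- in orange, ordered from primitive endoderm over inner cell mass to trophectoderm, with a line at each mean. Sox17 is at background in all 3 clones, while Gata6, Cdx2, Gata3, Tead4, Krt8 and Krt18 overlap between the groups.

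The largest rises were smaller than the largest falls. Mgst2, a microsomal glutathione transferase, had 6.19, 5.49 and 7.21 in fertilized embryos and 9.45, 9.51 and 9.95 in clones. The lowest clone was well above the highest fertilized array (10.1-fold higher, log2 difference 3.34, SE 0.38, adjusted p = 0.0013). Axl, a receptor tyrosine kinase, had 4.79, 6.08 and 5.94 against 7.99, 7.76 and 8.80 (5.99-fold higher, adjusted p = 0.00405). Ier3, an immediate early gene of stress and growth signals, had 6.48, 7.0 and 7.63 against 8.91, 10.02 and 9.28 (5.17-fold higher, adjusted p = 0.00412). All 3 were steady, but Axl and Ier3 did not pass with the spread of all 13 arrays (adjusted p = 0.216 and 0.0709). Axl was detected on 2 fertilized arrays. All 3 genes were bright in cumulus cells, the source of the nuclei (10.58 and 10.89 for Mgst2, 12.57 and 13.18 for Axl, 13.67 and 12.84 for Ier3).

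Other steady rises were those of Kif3c, a kinesin (2.34, SE 0.30, adjusted p = 0.00209), Slc4a8, a bicarbonate transporter (2.26, SE 0.36, adjusted p = 0.00646), Mlkl, the executor of necroptosis (2.25, SE 0.38, adjusted p = 0.00835, detected on 2 fertilized arrays), and Ly6e, a membrane-anchored protein of the Ly6 family (2.17, SE 0.30, adjusted p = 0.00317). Erich5 (2.20) and Rasl11b, a Ras-like protein (2.12), belonged to the same set. Nanos1, an RNA-binding repressor of translation, had 4.87, 4.28 and 6.65 in fertilized embryos and 7.13, 8.28 and 8.18 in clones (log2 difference 2.60, SE 0.53, adjusted p = 0.0196). It was detected on 2 fertilized arrays, bright in the oocyte (10.56) and at background in cumulus cells (4.28 and 4.30). Its call was lost without the untimed or 96 h fertilized array (adjusted p = 0.0687 and 0.0742) and without the 96 h or blastocyst SCNT array (adjusted p = 0.0627 and 0.0619). Cplx1, a regulator of vesicle release detected on 1 fertilized array (2.22, adjusted p = 0.0268), lost its call without the untimed or blastocyst fertilized array (adjusted p = 0.0847 and 0.0858).

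Of the 15 largest rises, 9 were at least 2-fold brighter in cumulus cells than in the oocyte and 2 the other way round. This was not general: among all 258 higher genes 37.6% were at least 2-fold brighter in cumulus cells, close to 35.5% of all genes tested and 30.7% of the lower genes. The oocyte was at least 2-fold brighter than cumulus cells for 14.7% of the higher genes, 29.7% of the lower genes and 23.9% of all. Genes detected neither in the oocyte nor in both cumulus arrays made up 23.3% of the higher genes, 16.4% of the lower genes and 9.96% of all. These shares are descriptions with no test.

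Markers were read for cells that could have been carried along. Of 39 cumulus and granulosa genes on the chip, 7 to 9 were detected on SCNT arrays and 8 to 10 on fertilized arrays, against 22 to 26 on cumulus arrays. Their summed level was 3921 to 5962 in clones, 3460 to 3996 in fertilized embryos and 27994 to 29445 in cumulus cells. Of 22 detected on both cumulus arrays, 13 were undetected on all 6 embryo arrays, among them Cyp11a1, Inha and Inhba. Of the 9 tested, 2 were higher and 0 lower: S100a6, a calcium-binding protein (1.82, adjusted p = 0.0128), and Ccn2, a matricellular growth factor (1.81, adjusted p = 0.0131), and at an unadjusted p under 0.05 limma gave 3 higher and 1 lower. S100a6 lost its call without the untimed or 96 h fertilized array (adjusted p = 0.0538 and 0.0613) and Ccn2 without the untimed one (adjusted p = 0.0522). Blood cell genes were detected at 1 to 2 of 14 in either group, and among them Hba-a1, an alpha globin, was higher in clones (1.17, adjusted p = 0.0377, detected on 1 fertilized array), which was lost in 5 of the 6 fits without 1 array (adjusted p up to 0.128).

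Imprinted genes, of which a single parental copy is active, held calls in both directions, none of them steady. Of 11 tested genes active from the maternal copy, 2 were higher (18.2%, against 3.77% of all genes) and 1 lower (9.09%, against 4.72%), with a median of -0.09. Cdkn1c, a cell cycle inhibitor that limits placental growth, had 6.76, 7.58 and 7.86 in fertilized embryos and 8.30, 10.41 and 10.58 in clones (5.15-fold higher, log2 difference 2.36, SE 0.54, adjusted p = 0.027). The untimed clone stood nearest to the fertilized arrays, and the call was lost without any of the other 5 arrays (adjusted p 0.0533 to 0.0879). Cd81, a tetraspanin (1.35, adjusted p = 0.0428), was lost without the same 5 arrays (up to 0.125). Grb10, a growth-restraining adaptor, had 6.43, 7.67 and 7.03 against 5.96, 5.51 and 5.56 (2.58-fold lower, adjusted p = 0.0258), lost in 4 of the 6 fits (adjusted p up to 0.0838).

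Of 12 tested genes active from the paternal copy, 1 was higher (Smoc1, 0.85, adjusted p = 0.0496) and 1 lower (Inpp5f, -0.97, adjusted p = 0.0428), each 8.33% of the list, with a median of 0.39. Smoc1 was lost without any 1 array and Inpp5f without any but the untimed SCNT array (adjusted p up to 0.175 and 0.151). The placental transporter Slc38a4 (0.69, adjusted p = 0.1), the adaptor Gab1 (0.74, adjusted p = 0.06) and Sfmbt2 (0.82, adjusted p = 0.201), which in mouse rely on histone methylation rather than DNA methylation of the maternal copy, were higher in mean without passing the test. Igf2 (-0.57, adjusted p = 0.183) and Mest (0.29, adjusted p = 0.571) did not pass either, Peg3 was not detected and H19 had no probe under that symbol.

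Of 30 tested genes of oxidant defence 4 were higher (13.3%, against 3.77% of all genes) and 1 lower, with a median of 0.39. Hmox1, heme oxygenase, had 5.17, 5.25 and 5.52 in fertilized embryos and 6.47, 7.66 and 6.50 in clones (log2 difference 1.56, SE 0.31, adjusted p = 0.0176). Gpx3, a secreted glutathione peroxidase, had 5.52, 6.63 and 6.56 against 7.73, 7.63 and 7.76 (1.47, SE 0.29, adjusted p = 0.0168), and its call was steady. Srxn1, sulfiredoxin (1.37, adjusted p = 0.0351), and Gsta4, a glutathione transferase (0.95, adjusted p = 0.0491), completed the set. Hmox1 was lost without the untimed or 96 h fertilized array (adjusted p = 0.0635 and 0.0725), and Srxn1 and Gsta4 in 4 and 5 of the fits without 1 array (adjusted p up to 0.128 and 0.165). Prdx2, a peroxiredoxin, was lower on its brightest probe (-1.09, adjusted p = 0.027) and not on its other 2 probes (0.58 and 0.10).

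Of 30 tested heat shock chaperones, 3 were higher (10%, against 3.77% of all genes) and 1 lower (3.33%, against 4.72%). The lower one was the collagen chaperone Serpinh1, also counted among the primitive endoderm genes. Hspb1, a small heat shock protein, had 7.48, 7.91 and 7.38 in fertilized embryos and 9.30, 9.99 and 10.47 in clones (5.03-fold higher, log2 difference 2.33, SE 0.30, adjusted p = 0.0021), a steady call, and it was low in cumulus cells (5.34 and 5.47). Hspb8 (1.06, adjusted p = 0.0367) and Dnajb2 (1.01, adjusted p = 0.0269) rose with it, though both were lost in 4 or more of the fits without 1 array (adjusted p up to 0.132 and 0.0937). The median of the list was -0.17. Of 27 genes of the endoplasmic reticulum and the integrated stress response, 5 were lower (18.5%, against 4.72% of all genes) and 0 higher. Among the 5 were the chaperone Hsp90b1 (-0.88, adjusted p = 0.039) and asparagine synthetase Asns (-0.94, adjusted p = 0.0408). At an unadjusted p under 0.05 limma gave 8 lower and 3 higher. Hsp90b1 was lost in 5 and Asns in all 6 of the fits without 1 array (adjusted p up to 0.154 and 0.121), those fits gave 0 to 3 lower genes, and the median of the list was -0.05.

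Of 26 tested genes of the p53 response and apoptosis, 3 were higher (11.5%, against 3.77% of all genes) and 1 lower, with a median of 0.14. The higher genes were Trp53inp1 (1.49, adjusted p = 0.0365), Cdkn1a, the p21 inhibitor of the cell cycle (7.76, 7.99 and 8.44 against 8.78, 9.47 and 9.22, difference 1.09, adjusted p = 0.0299), and Mdm2, the ligase that removes p53 (0.77, adjusted p = 0.0456). All 3 are known targets of p53, and each was lost in 4 or 5 of the fits without 1 array (adjusted p up to 0.109, 0.107 and 0.151). Another, dimmer probe of each gave a smaller difference (0.32 for Trp53inp1, 0.66 for Cdkn1a and 0.40 for Mdm2).

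Of 49 tested genes that copy DNA, 4 were lower (8.16%, against 4.72% of all genes) and 0 higher, 36 had a negative difference and the median was -0.22, with 10 lower and 1 higher at an unadjusted p under 0.05 in limma. The 4 were Tyms, thymidylate synthase (7.30, 7.35 and 7.37 against 6.45, 6.39 and 6.32, difference -0.95, adjusted p = 0.0155), the origin factor Orc4 (-0.89, adjusted p = 0.0465, detected on 1 clone, with 0.05 on another probe), the helicase subunit Mcm4 (-0.78, adjusted p = 0.0375) and the flap nuclease Fen1 (-0.77, adjusted p = 0.0476). Tyms was lost without any of the fertilized arrays (adjusted p up to 0.0697) and the others in 5 of the 6 fits (adjusted p up to 0.154), and 0 to 5 genes of the list were lower across those fits and 0 with the spread of all 13 arrays.

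Histone genes were higher in mean, with 3 of 28 higher (10.7%, against 3.77% of all genes), 0 lower and a median of 0.51. At an unadjusted p under 0.05 limma gave 8 higher and 0 lower. The 3 were H2ac18 (5.76, 4.35 and 5.31 against 6.65, 8.29 and 7.54, difference 2.35, adjusted p = 0.0129), H2bc4 (1.38, adjusted p = 0.0385) and H2ac8 (1.11, adjusted p = 0.0269). The list median was -0.30 in the untimed pair against 0.83 and 0.65 in the 96 h and blastocyst pairs. H2ac18 and H2ac8 were each detected on 2 fertilized arrays. H2ac18 was lost without the 96 h fertilized array (adjusted p = 0.0513), and H2bc4 and H2ac8 in 5 of the 6 fits (adjusted p up to 0.139 and 0.101). Histone copies are near identical, so their probes may share signal.

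Among chromatin regulators, Uhrf1, which brings the maintenance DNA methyltransferase to replicated DNA, had at least 9.73 on each fertilized array and 9.17, 8.36 and 8.80 in clones (log2 difference -1.10, SE 0.24, adjusted p = 0.0247). It was lost without any array but the untimed SCNT array (adjusted p 0.0617 to 0.0946). The enzymes Dnmt1 (0.26, adjusted p = 0.411) and Dnmt3b (-0.51, adjusted p = 0.133) did not pass the test. Cbx7, a reader in Polycomb repressive complex 1, had 6.21, 6.24 and 6.22 against 4.43 to 4.66 and was not detected in clones (at least 2.21-fold lower, adjusted p = 0.00126, steady), and its paralog Cbx8, detected on 2 clones, was lower too (-0.80, adjusted p = 0.0317). Cbx8 was lost in 5 of the 6 fits (adjusted p up to 0.0987). Setdb1, an H3K9 methyltransferase, was the lower gene among 8 tested of the H3K9 enzymes (-0.99, adjusted p = 0.0335, detected on 2 clones) and was lost in 5 of the 6 fits as well (adjusted p up to 0.129). Kdm4d, an H3K9 demethylase, was not detected on any of the 6 arrays. Of 28 genes of histone acetylation and remodelling, 0 passed the test in limma, with 3 higher and 2 lower at an unadjusted p under 0.05.

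Few of the genes that run the basic machinery of the cell passed the test. In limma 0 of 56 nucleolar assembly genes, 0 of 13 glycolysis genes and 0 of 17 cholesterol genes passed, with 5, 1 and 3 past an unadjusted p of 0.05. Of 56 cytosolic ribosomal proteins 1 was higher and 2 lower, of 69 mitochondrial ribosomal proteins 2 were lower, of 39 proteasome subunits 1 was lower, and of 68 respiratory chain genes 1 was higher and 3 lower. The medians of these 7 lists lay between -0.11 and 0.17, and the groups overlapped for Actb (12.02 to 12.52 against 11.70 to 12.84). Steady calls within them were rare: Mrps35, of the mitochondrial ribosome, had 8.43, 8.35 and 8.54 against 6.88, 6.90 and 7.25 (-1.43, SE 0.20, adjusted p = 0.00388), and Rps15a, of the cytosolic one, had 5.80 to 6.39 against 4.72 to 5.02 (-1.26, adjusted p = 0.00959, detected on 1 clone). Rps15a did not pass with the spread of all 13 arrays (adjusted p = 0.675).

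Fewer oocyte genes were detected in either group of embryos than in the oocyte. Of 41 on the chip, 11 to 15 were detected on SCNT arrays and 15 to 16 on fertilized arrays, against 32 on the oocyte array, and the median of the 15 tested was 0.03. Gdf9, a growth factor of the oocyte, had 7.93, 6.73 and 7.41 against 7.38, 7.21 and 7.58 (0.03, adjusted p = 0.959), far below 13.23 in the oocyte. Oog1, an oocyte gene of a multicopy family, had 8.25, 5.67 and 6.29 in fertilized embryos and 4.20 to 4.25 in clones, where it was undetected (at least 3.15-fold lower, adjusted p = 0.0198). It lost its call without the 96 h or blastocyst SCNT array (adjusted p = 0.0528 and 0.0544). Elavl2, an RNA-binding protein, was undetected in clones (at least 1.08-fold lower, adjusted p = 0.0198) and Ybx2, an mRNA-packaging protein of germ cells, higher (1.55, adjusted p = 0.012). Elavl2 was lost without any array but the untimed SCNT array (adjusted p up to 0.0908) and Ybx2 without the 96 h fertilized array (adjusted p = 0.0569). Zp3 and Mos were not detected often enough to be tested.

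**Figure D5:**
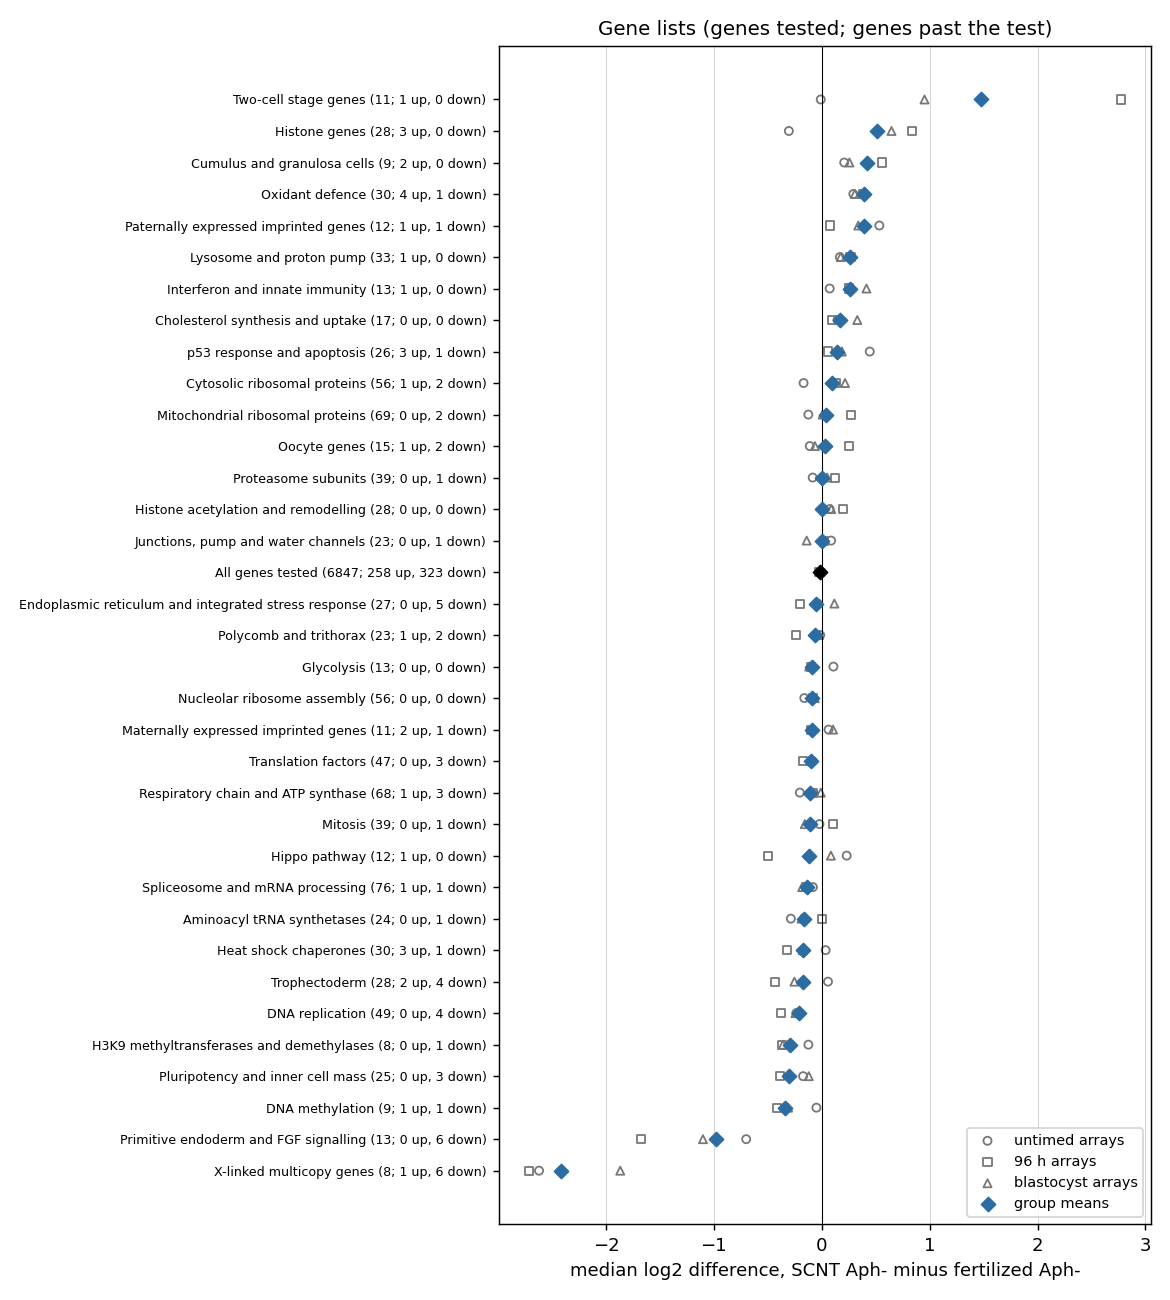
Median log2 difference, SCNT Aph- minus fertilized Aph-, of each gene list with at least 5 tested genes, for group means (diamonds, with all genes in black) and within the untimed, 96 h and blastocyst pairs (open markers). X-linked multicopy genes (-2.42) and primitive endoderm genes (-0.98) lie lowest, and two-cell stage genes (1.48) lie highest with wide scatter between the pairs.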

How the data were processed

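Total RNA of pooled embryos, oocytes or cumulus cells was amplified, labelled with biotin and hybridised to Illumina mouse bead arrays. The labels and the methods name different amplification kits. The authors summarised the beads in BeadStudio 3.2 and deposited linear intensities without background subtraction, a detection p-value per probe, and a second table of log2 values that the authors normalized by quantiles (the labels name lumi and RMA, with no order). Starting from the intensities, all 13 arrays were corrected and quantile normalized with neqc (offset 16, background from the detection p-values, limma 3.58.1, R 4.3.3) and put on a log2 scale. Probes with a symbol detected at p under 0.01 on at least 3 of the 6 arrays were kept, the brightest per symbol. The 25697 probes gave 23978 with 1 symbol and 1719 with none, from the platform annotation. Groups were compared with lmFit and eBayes over the 6 arrays (4 residual degrees of freedom), with Benjamini-Hochberg adjustment over all genes tested. The script was tested on simulated data. Where a group was undetected on all arrays, the fold is a bound: the bright mean over the mean, per array, of the higher of the detection limit and the probe. The detection limit of an array was the lowest signal among its detected probes.

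Named genes were Xist and Y-linked genes, Pou5f1, Nanog and Actb, the 15 largest rises and falls without overlap, up to 5 called members per list by size, and a set of lineage, oocyte, imprinted and chromatin genes whatever their test. The members and the 38 lists were chosen with earlier results of these data known. Genes outside that rule are Efnb1, Fmr1nb, Hsd17b10, Gpc4, Smc1a, Lamc1, Ets2, Rhox5 and Xlr5a where their lists or chromosome are described, chosen after their values were seen. The number of arrays limits the precision, since 3 against 3 gives a wide interval for any gene. Alternatives were the authors' log2 values, other background corrections, scalings and detection filters, the mean of probes, all 13 arrays in the model, a block for sample type, another variance prior and each array left out. Promoters and gene names came from RefSeq tables on GRCm38.p6.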

Additional observations from a re-analysis of the deposited data

How the results depend on the processing

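Among the genes called and named, none changed direction under any alternative. The counts of genes higher and lower (main values 258 and 323, and 175 and 217 at 2-fold or more) stayed within 1.5 times with the authors' log2 values, neqc on the 6 arrays, scaling to the 75th percentile, a looser detection filter, the mean of probes, a block for sample type and another variance prior. Without background correction they were 128 and 157, with 23 and 27 at 2-fold or more. With no detection filter, where 16593 genes were tested, they were 49 and 88, with 26 and 58 at 2-fold or more. With detection required on all 6 arrays, which drops genes silent in clones, 203 genes were lower, 111 of them at 2-fold or more, and 260 were higher, or 56.2% of its calls. With the spread taken from all 13 arrays they were 27 and 52, all at 2-fold or more, and the cause was not tested. Leaving out 1 array gave 71 to 443 higher and 99 to 553 lower genes, and 71 to 303 and 99 to 380 at 2-fold or more. The shift of all genes under the 75th percentile scaling was -0.11. The medians of X-linked multicopy genes and of primitive endoderm genes stayed negative but each ran up to -0.09. Of the 42 medians of lists, chromosome classes and all genes, 22 took both signs over the alternatives. Those that turned sign from a main value larger than the spread between arrays were p53 genes (0.14, and -0.00727 under that scaling), Y-linked genes (-0.84, and 0.022 with no detection filter), DNA methylation genes (-0.34, and 0.0278 with no filter), the Xist region (-0.36, and 1.06 with detection on all 6 arrays) and H3K9 enzymes (-0.30, and 0.0354 with detection on all 6 arrays). The median of all genes was 0.00948 with no filter and 0.0298 with detection on all 6 arrays. Leaving out 1 array gave medians of -0.122 to 0.00156 for the respiratory chain, positive without the untimed SCNT array, and -0.0504 to 0.301 for cholesterol genes, negative without the blastocyst SCNT array.

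The deviations of fertilized and SCNT arrays of the same sample type had correlations of -0.09 for untimed, -0.28 for 96 h and 0.17 for blastocyst. Between arrays of different types they ran from -0.23 to 0.27. With only 3 arrays a group, these values cannot decide whether arrays of a sample type share a stage or time. With sample type as a replicate block 181 genes were higher and 226 lower, with 169 and 205 at 2-fold or more, and 166 of the 258 and 209 of the 323 were called again. Dim genes carry the limits: SCNT arrays were dimmer and detected fewer probes, so genes near background in clones have only a bound, and with 3 arrays a group a missed threshold does not show equal levels. The sex of the fertilized embryos is not given.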

Other observations

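Genes of the two-cell stage, which mouse embryos express in a burst as the zygotic genome is activated and then switch off, varied among the clones. Of 11 tested, all had a positive difference, with a median of 1.48, but 1 passed the test in limma (Ddit4l, 1.67, adjusted p = 0.047) against 6 higher and 0 lower at an unadjusted p under 0.05. The list median was -0.01 within the untimed arrays, 2.77 within the 96 h arrays and 0.95 within the blastocyst arrays, and without the untimed SCNT array 7 of the 11 were called higher. Ddit4l lost its call in 5 of the 6 fits without 1 array (adjusted p up to 0.163). Named after their values were seen, Tcstv3 had 7.68, 5.26 and 8.35 in the untimed, 96 h and blastocyst fertilized arrays and 8.38, 10.82 and 9.30 in the clones. Tdpoz1 had 7.20, 5.32 and 7.19 against 6.20, 9.37 and 8.81, and Tdpoz4 had 5.28, 4.20 and 5.28 against 4.56, 7.30 and 6.97. The untimed clone was thus within the range of the fertilized arrays or below it for both Tdpoz genes, and the 96 h fertilized array was the lowest of its group.

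Genes outside that list with the same order, named after their values were seen, included Gm13043, of the Pramel family of germ cell genes, with 7.61, 4.63 and 7.60 against 7.41, 9.96 and 10.14 (difference 2.55, adjusted p = 0.0917), and Pramel20, with 7.14, 4.37 and 7.40 against 6.84, 9.17 and 9.38 (2.16, adjusted p = 0.128). Gm4567 had 5.78, 4.76 and 6.56 against 6.34, 9.28 and 8.79 (2.44, adjusted p = 0.0528). None of these passed the test over the 3 arrays of each group. These families hold near-identical copies, so their probes may share signal. Ezhip, an X-linked inhibitor of Polycomb repressive complex 2 that is bright in the oocyte (12.84), was detected on every fertilized array and on no clone (at least 1.83-fold lower, adjusted p = 0.00412, called in all 6 fits without 1 array).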
